A study of Homo sapiens with 12 samples.

Results

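The levels of 10 genes of the ERK transcription programme were followed in RNA-seq libraries of IMR90 ER:RAS cells: the zinc finger factors EGR1, EGR2 and EGR3, the immediate early gene IER3, and 6 ETS-domain factors, ETS1, ETS2, ETV1, ETV4, ETV5 and ELK3. They were chosen by symbol, 10 of the 62069 genes in the count table, each with a single Ensembl identifier, and all 10 passed the filter on low counts that left 15284 genes for testing. IMR90 ER:RAS cells are human lung fibroblasts in which RAS is joined to an estrogen receptor domain. The fusion protein stays inactive until 4-hydroxytamoxifen (4OHT) is added, and then drives oncogene-induced senescence (OIS).

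There were 4 groups of 3 libraries, all from cells at passage 13 grown for 7 days in DMEM with 10% FBS, with new medium on day 4, and all labelled day 5 after induction. They were non-induced cells (libraries T, A and C), cells treated with 100 nM 4OHT and no XPO7 shRNA, called 4OHT below (T, A and B), and cells treated with 4OHT that carried an shRNA against XPO7, which encodes a nuclear transport receptor, either shXPO7_3 (T, A and B) or shXPO7_5 (T, A and B). The comparison of 4OHT with non-induced cells asked how RAS activation moved the genes, and those of each shRNA with 4OHT asked whether loss of XPO7 altered that state. Whether the libraries within a group are separate cultures is stated neither in the labels nor in the study's methods as read here, and p-values therefore reflect only how far these libraries varied, which could be technical variation. Every cell carried the RAS fusion, and the design holds no library with XPO7 knockdown but without 4OHT.

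ERK, the last kinase of the RAF-MEK-ERK cascade below RAS, enters the nucleus and phosphorylates ternary complex factors, ETS proteins that sit beside serum response factor (SRF) on the CArG boxes of immediate early genes such as EGR1. The products of those genes are transcription factors in their own right. ETS1 and ETS2 are phosphorylated by ERK directly, while ETV1, ETV4 and ETV5, the PEA3 subfamily, are among the transcripts that accumulate when ERK signalling persists and RAS is oncogenic.

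The CArG box is the sequence on which SRF binds, and 1 promoter each of EGR1 and EGR2 is shown first because it holds this box. RefSeq windows from 250 bases before to 50 bases after a transcription start (GRCh38.p14) were at hand for 5 of the 10 genes, EGR1, EGR2, ETS2, ETV1 and ELK3, with 14 starts in all. The 250 bases before the start of EGR1, chr5:138465229-138465478 on the plus strand, and those before 1 of the 3 starts of EGR2, chr10:62816367-62816616 on the minus strand, read as follows from 5′ to 3′, with CArG boxes in capitals.
EGR1: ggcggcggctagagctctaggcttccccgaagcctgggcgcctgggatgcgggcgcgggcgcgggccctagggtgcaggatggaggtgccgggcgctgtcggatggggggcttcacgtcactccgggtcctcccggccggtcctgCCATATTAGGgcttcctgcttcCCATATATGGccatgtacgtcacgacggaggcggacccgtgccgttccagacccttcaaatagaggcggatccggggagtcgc
EGR2: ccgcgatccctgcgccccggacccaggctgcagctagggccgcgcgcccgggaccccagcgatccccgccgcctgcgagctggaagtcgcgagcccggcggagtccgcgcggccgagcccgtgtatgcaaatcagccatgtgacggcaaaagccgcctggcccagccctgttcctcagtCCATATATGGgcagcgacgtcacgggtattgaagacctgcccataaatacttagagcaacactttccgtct
EGR1 held 2 CArG boxes, CCATATTAGG at bases 105 to 96 before the start and CCATATATGG at bases 83 to 74, and EGR2 held CCATATATGG at bases 71 to 62. A CArG box (CC, then 6 bases that are A or T, then GG, which reads the same on both strands) was found in 454 of 35116 RefSeq windows of this length, or 1.29%. No CArG box was found in the windows of the other EGR2 starts, nor in those of ETS2, ETV1 and ELK3. The core of ETS sites, GGAA on either strand, stood 4 times in the EGR1 sequence, 1 of them at bases 93 to 90 between the CArG boxes and 1 at bases 86 to 83 overlapping the second box by 1 base, but 95.5% of all windows hold this short motif. The motif GCGNGGGCG, bound by EGR proteins, was found on either strand in 9.43% of windows and stood once in the EGR1 sequence, as GCGCGGGCG at bases 198 to 190. These matches describe letters in the windows and not bound sites.

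Library totals ran from 28534141 to 60397769 counts, and levels are given as CPM, the count of a gene scaled to a common library size after TMM normalization. The fibroblast markers (COL1A1, COL1A2, COL3A1, VIM, THY1 and PDGFRB) were all detected in every group, with a summed level of 16544 to 26907 CPM, against 30.0 to 46.9 CPM for 5 epithelial markers, 1.90 to 5.27 CPM for 4 endothelial markers and 0 to 0.198 CPM for 5 haematopoietic markers. Of the latter lists, 2 of 5, 2 of 4 and 2 or 3 of 5 genes were at 0 throughout a group. XPO7, the target of the shRNAs, was at 127, 144 and 139 CPM in the 4OHT libraries, 26.4, 28.7 and 27.9 CPM with shXPO7_3 and 50.8, 54.0 and 51.8 CPM with shXPO7_5, so all 6 knockdown libraries lay below the 4OHT libraries.

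RAS activation raised 7 of the 10 genes and lowered 1, ELK3, while ETS1 and ETV5 did not pass the test (edgeR quasi-likelihood test, Benjamini-Hochberg adjusted p under 0.05 over all 15284 genes). The rises spanned 1.52-fold for ETV1 to 34.5-fold for EGR3. In the same comparison 50.9% of all genes tested were called, 24.8% higher and 26.1% lower, so calls were common. The median log2 fold change of the 10 genes, chosen with earlier results of these data known, was 1.09, beside -0.0068 over all genes. All libraries of both groups were apart for 9 of the 10 genes, 8 higher and 1 lower, where 63.2% of all genes had groups that did not overlap, 31.8% higher and 31.4% lower.

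The EGR genes encode closely related zinc finger factors that are made within minutes of growth factor signalling and bind the same GC-rich motif. EGR3 was at 0.896, 0.559 and 0.737 CPM in the non-induced libraries, 25.4, 25.2 and 24.4 CPM in the 4OHT libraries, 30.1, 28.2 and 28.5 CPM with shXPO7_3 and 26.1, 27.4 and 28.0 CPM with shXPO7_5. The non-induced libraries all lay below 1 CPM, and no other library came near them. On the log2 scale the rise with 4OHT was 5.11 ± 0.124 (SE; adjusted p = 3.03e-11), which placed EGR3 at rank 57 from the top among the 15284 genes. EGR2 (chr10:62811996-62919900 on GRCh38) was at 1.88, 1.87 and 1.08 CPM in the non-induced libraries, 15.6, 14.7 and 14.8 CPM in the 4OHT libraries, 19.7, 15.8 and 17.2 CPM with shXPO7_3 and 22.8, 18.9 and 21.7 CPM with shXPO7_5. Again the non-induced libraries stood apart, and the rise was 3.22 ± 0.172, or 9.32-fold (adjusted p = 1.34e-08). EGR1 (chr5:138465490-138469315), the most abundant of the EGR genes per length in every group, was at 40.8, 41.0 and 38.2 CPM in the non-induced libraries, 140.3, 135 and 134 CPM in the 4OHT libraries, 179, 151 and 155 CPM with shXPO7_3 and 182, 149 and 182 CPM with shXPO7_5. It was already expressed before induction and rose 3.41-fold, a log2 change of 1.77 ± 0.0922 (adjusted p = 1.08e-08).

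The smaller the starting level of an EGR gene, the larger was its fold rise, so the makeup of the family changed. Per kb of exon, the summed EGR level went from 13.3 ± 0.633 CPM per kb (SD, n = 3) in non-induced cells to 52.7 ± 1.29 CPM per kb with 4OHT. EGR1 held 95.6% ± 0.789 of this sum before and 82.5% ± 0.0658 after induction. EGR3 went from 1.13% ± 0.261 to 9.77% ± 0.146, and the libraries of the 2 groups did not overlap. EGR3 was below EGR2 before induction, at 0.150 against 0.437 CPM per kb, and above it after, at 5.15 against 4.08 CPM per kb, with no overlap of libraries in either state. These shares are descriptions and were given no test. In both knockdown groups EGR1 still held most of the sum, 82.8% ± 0.353 with shXPO7_3 and 82.7% ± 1.02 with shXPO7_5.

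IER3, an immediate early gene whose product modulates apoptosis and ERK signalling, was the highest of the 10 genes per length in all 4 groups. IER3 (chr6:30743199-30744554) was at 71.6, 67.0 and 61.6 CPM in the non-induced libraries, 469, 485 and 486 CPM in the 4OHT libraries, 636, 508 and 552 CPM with shXPO7_3 and 603, 525 and 670.3 CPM with shXPO7_5. No 4OHT library overlapped a non-induced one, and the rise was 7.19-fold, a log2 change of 2.85 ± 0.107 (adjusted p = 6.46e-10). Per length it stood at 49.2 CPM per kb in non-induced cells and 354 CPM per kb with 4OHT, where EGR1 followed at 43.5 CPM per kb.

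ETS1 and ETS2 are paralogs that share an ETS domain and an ERK phosphorylation site, and 1 of them, ETS2, passed the test, while the difference between them was not tested. ETS2 (chr21:38805307-38824955) was at 72.1, 66.4 and 64.3 CPM in the non-induced libraries, 124, 124 and 127 CPM in the 4OHT libraries, 142, 137 and 134 CPM with shXPO7_3 and 145, 137 and 152 CPM with shXPO7_5. Its 4OHT libraries were within a few CPM of each other and all above the non-induced ones, with a log2 change of 0.89 ± 0.0648, or 1.85-fold (adjusted p = 2.47e-07). ETS1 (chr11:128458761-128587558) was at 108, 118 and 115 CPM in the non-induced libraries, 119, 122 and 118 CPM in the 4OHT libraries, 129, 139.7 and 139.8 CPM with shXPO7_3 and 119, 128 and 113 CPM with shXPO7_5. The 4OHT libraries lay just above the highest non-induced library, but the log2 change of 0.073 ± 0.0666 did not pass the test (95% confidence interval -0.072 to 0.22, adjusted p = 0.381) and was -0.024 with upper-quartile scaling, which moved the median of all genes by -0.10. Per kb of exon, ETS1 held 52.0% ± 2.50 and ETS2 48.0% ± 2.50 of the level of the pair in non-induced cells. With 4OHT the shares were 38.1% ± 0.583 and 61.9% ± 0.583, and the log2 ratio of ETS2 to ETS1 went from -0.12 ± 0.145 to 0.70 ± 0.0356 (SD, n = 3).

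In the PEA3 subfamily, whose members are activators of matrix protease and invasion genes, ETV4 and ETV1 passed the test and ETV5 did not. ETV4 (chr17:43527844-43579620) was at 18.4, 17.5 and 16.2 CPM in the non-induced libraries, 40.7, 43.0 and 44.4 CPM in the 4OHT libraries, 58.2, 46.4 and 49.98 CPM with shXPO7_3 and 60.9, 54.5 and 72.2 CPM with shXPO7_5. It rose 2.46-fold with 4OHT, a log2 change of 1.3 ± 0.115 (adjusted p = 1.40e-06), with no overlap of libraries. The locus of ETV4 overlaps that of DHX8 on the other strand without sharing annotated exon, and DHX8 had a log2 change of 0.057 (adjusted p = 0.546). ETV1 (chr7:13891228-13991425) was at 37.9, 43.7 and 50.6 CPM in the non-induced libraries, 68.5, 68.4 and 64.1 CPM in the 4OHT libraries, 60.2, 78.8 and 76.7 CPM with shXPO7_3 and 48.1, 59.8 and 38.4 CPM with shXPO7_5. The non-induced libraries differed among themselves more than the 4OHT ones, all of which were higher, and the log2 change was 0.60 ± 0.156 (adjusted p = 0.00642). ETV5 (chr3:186046308-186110318) was at 106, 90.6 and 86.6 CPM in the non-induced libraries, 106, 103 and 106 CPM in the 4OHT libraries, 111, 93.8 and 96.9 CPM with shXPO7_3 and 117, 102 and 111 CPM with shXPO7_5. The non-induced library T was above every 4OHT library, the groups overlapped, and the log2 change of 0.15 ± 0.0915 did not pass the test (95% confidence interval -0.05 to 0.35, adjusted p = 0.193). Without non-induced library T it was 0.24 and passed (adjusted p = 0.0393), as it did with the correction for GC content and length described below (0.19 ± 0.0529, adjusted p = 0.00682).

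On average ETV5 was the leading PEA3 transcript per length in all 4 groups, but held less of the sum after induction. The sum was 25.7 ± 1.5 CPM per kb in non-induced cells and 36.9 ± 0.259 CPM per kb with 4OHT, of which ETV5 held 63.3% ± 3.30 and 49.0% ± 0.675. ETV4 went from 18.7% ± 0.612 to 32.1% ± 1.15. ETV1 held 18.0% ± 3.47 before and 18.9% ± 0.835 after, a difference smaller than the spread between libraries.

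**Figure D1:**
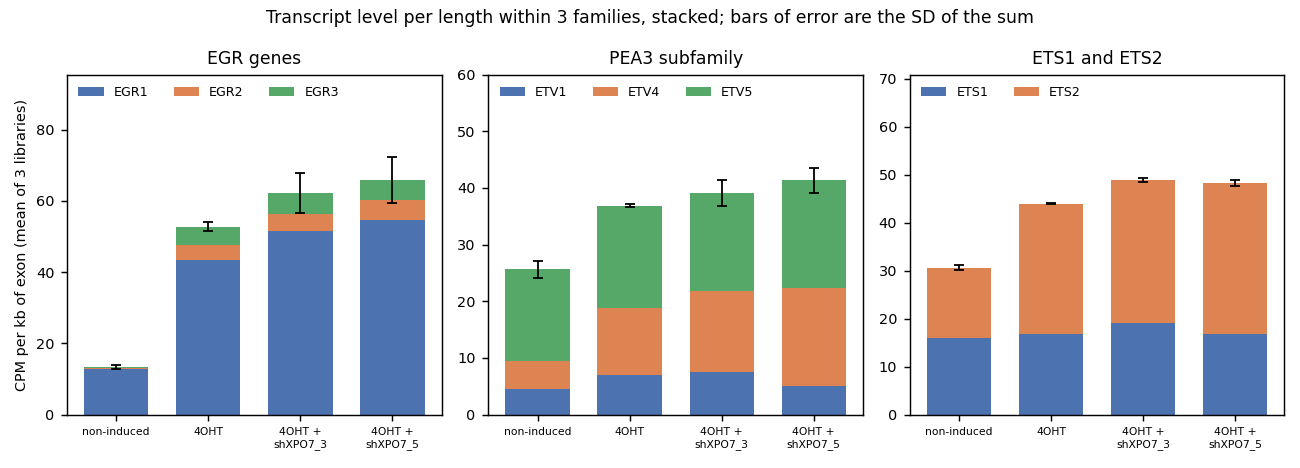
Level per kb of exon (vertical axis, CPM per kb, mean of 3 libraries) of the EGR genes, the PEA3 subfamily and ETS1 with ETS2, stacked by gene in each of the 4 groups; error bars are the SD of the sum. The EGR stack rises from 13.3 ± 0.633 to 52.7 ± 1.29 CPM per kb with 4OHT and stays mostly EGR1, while the ETV4 and ETS2 segments widen.

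ELK3, a ternary complex factor that represses SRF targets until ERK phosphorylates it, was the only one of the 10 genes to fall with 4OHT. ELK3 (chr12:96194382-96269835) was at 111, 124 and 136 CPM in the non-induced libraries, 87.5, 88.3 and 86.7 CPM in the 4OHT libraries, 85.1, 98.7 and 109 CPM with shXPO7_3 and 80.3, 105 and 76.9 CPM with shXPO7_5. The 4OHT libraries were tightly grouped and all below the non-induced ones, with a log2 change of -0.50 ± 0.124 (adjusted p = 0.00499). In non-induced cells ELK3 was the second of the 10 genes per length, at 26.6 CPM per kb, and with 4OHT the fourth, at 18.8 CPM per kb, below IER3, EGR1 and ETS2. In bulk RNA a change in the number of cells that express a gene and a change per cell cannot be told apart.

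The order of levels in non-induced cells was IER3, ELK3, ETV5, ETS1, ETS2, EGR1, ETV4, ETV1, EGR2 and EGR3. In that order ETV5, ETS1 and ETS2 (16.3, 15.9 and 14.7 CPM per kb) overlapped between neighbours, as did ETV4 and ETV1. With 4OHT the order was IER3, EGR1, ETS2, ELK3, ETV5, ETS1, ETV4, ETV1, EGR3 and EGR2, and no neighbours overlapped. The length used covers all annotated exons of a gene, whichever transcripts the cells made. Overlap between libraries does not show an error in that length, so close places in the order are uncertain. In the knockdown groups IER3, EGR1 and ETS2 kept the first 3 places. With shXPO7_3 the libraries of ELK3, ETS1 and ETV5 overlapped between neighbours. With shXPO7_5 those of ETV5, ELK3, ETV4 and ETS1 did, and so did those of EGR2, EGR3 and ETV1.

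XPO7 knockdown in 4OHT cells moved none of the 10 genes past the threshold with either shRNA. With shXPO7_3, 0.124% of all genes tested were called, and with shXPO7_5 0.589%. At an unadjusted p under 0.05 there were 5 of the 10 genes with shXPO7_3, where 6.41% of all genes were, and 6 with shXPO7_5, where 21.6% were. DESeq2 called 0 of the 10 with shXPO7_3, where it called 0.537% of all genes, and 3 with shXPO7_5 (EGR1, EGR2 and ETV4), where it called 2.45%. Both comparisons use the same 3 4OHT libraries, so they are not independent of each other.

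With shXPO7_3, the libraries did not overlap those of 4OHT for 7 of the 10 genes, all higher, where 14.6% of all genes had groups that did not overlap, 7.46% of all genes higher. The 7 were EGR1, EGR2, EGR3, IER3, ETS1, ETS2 and ETV4, and their log2 changes were 0.13 for ETS2, 0.18 for ETS1, 0.21 for EGR3, 0.22 for EGR2, 0.24 for IER3, 0.24 for EGR1 and 0.27 for ETV4. Adjusted p over the 10 genes ran from 0.565 to 0.999. For EGR1 the 95% confidence interval of the log2 change was 0.051 to 0.44, and for ETV4 it was 0.027 to 0.51. ETV1, ETV5 and ELK3 overlapped the 4OHT libraries.

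With shXPO7_5, 6 genes had all libraries above those of 4OHT (EGR1, EGR2, EGR3, IER3, ETS2 and ETV4) and 1, ETV1, had all below, where 26.8% of all genes had groups that did not overlap, 14.2% higher and 12.6% lower. ETV4 came nearest to a call, at a log2 change of 0.55 ± 0.111 (95% confidence interval 0.31 to 0.79) and an adjusted p of 0.05003, just above the threshold. EGR2 had a log2 change of 0.49 ± 0.143 (adjusted p = 0.133), EGR1 of 0.33 ± 0.0889 (adjusted p = 0.111) and IER3 of 0.32 ± 0.0997 (adjusted p = 0.148). ETV1 had a log2 change of -0.46 ± 0.156 (95% confidence interval -0.80 to -0.12, adjusted p = 0.171). Its libraries with shXPO7_5 overlapped the non-induced ones, at a log2 difference from non-induced cells of 0.15 ± 0.156 (adjusted p = 0.464), which was 0.32 ± 0.0520 and passed the test with the correction for GC content and length (adjusted p = 0.000159). Without shXPO7_5 library A, 6 of the 10 genes were called, EGR1, EGR2, IER3, ETS2 and ETV4 higher and ETV1 lower, while 0 were called without any other single library of these groups. Calls were also far more common over all genes without library A, at 3634 genes against 90 in the fit to all libraries. ETS1 and ELK3 had log2 changes of -2.4e-05 and 0.00081, with 95% confidence intervals of -0.15 to 0.15 and -0.27 to 0.27.

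**Figure D2:**
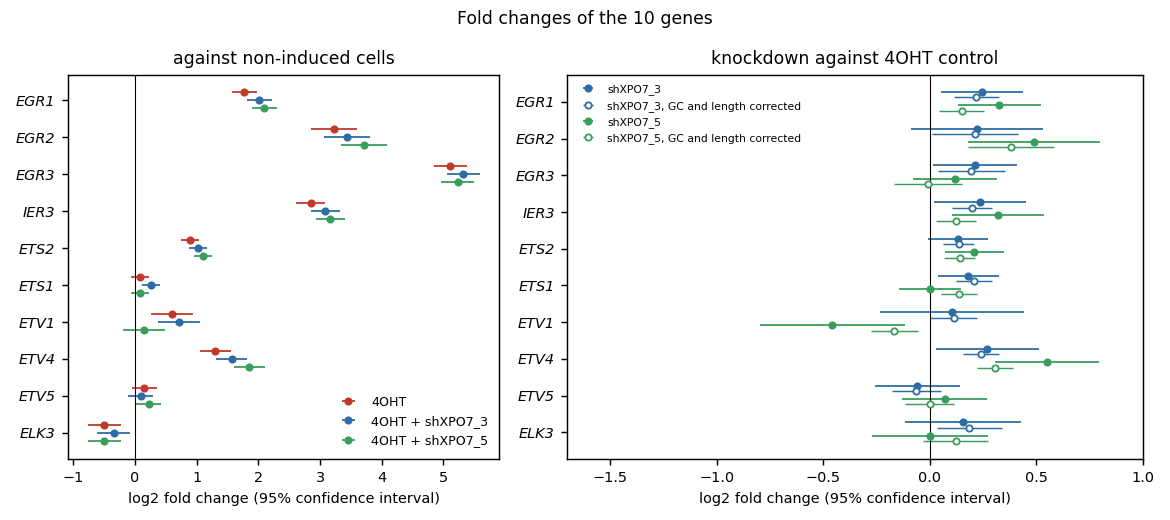
Log2 fold changes (horizontal axis, with 95% confidence intervals from edgeR) of the 10 genes in the 3 groups treated with 4OHT against non-induced cells (left) and in each knockdown against 4OHT (right, with open points for the fit corrected for GC content and length). The left panel spans -0.50 for ELK3 to 5.32 for EGR3, while every knockdown change on the right lies between -0.46 and 0.55.

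The shRNAs were also compared directly. None of the 10 genes differed past the threshold, where 0.0131% of all genes did, and 3 had an unadjusted p under 0.05, where 11.9% of all genes did (DESeq2 called 0, and 0.177% of all genes). The libraries did not overlap for 3 genes, ETS1, ETV1 and EGR3, all lower with shXPO7_5, where 9.71% of all genes had groups that did not overlap, 4.17% lower. ETV1 differed most, with a log2 difference of -0.56 ± 0.156 (95% confidence interval -0.90 to -0.22, adjusted p = 0.388). Per kb of exon, the log2 ratio of ETV4 to ETV1 was 0.078 ± 0.303 in non-induced cells, 0.77 ± 0.111 with 4OHT, 0.94 ± 0.377 with shXPO7_3 and 1.79 ± 0.523 with shXPO7_5. These ratios were not corrected for GC content. In the corrected fit described below, ETV4 changed by 0.31 and ETV1 by -0.17 with shXPO7_5 against 4OHT.

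In 3 of the 6 knockdown libraries log ratios to the 4OHT mean rose with GC content more than in any 4OHT library, and the 10 genes differ in GC content, from 38.1% for ETV1 to 60.8% for ETV4. Over all genes, the Spearman correlation of a library's log ratios to the 4OHT mean with GC content was 0.77 in shXPO7_5 library B, 0.59 in shXPO7_5 library T and 0.56 in shXPO7_3 library T. It was 0.11 in shXPO7_5 library A, -0.25 and -0.33 in shXPO7_3 libraries B and A, and -0.20 to 0.31 in the 4OHT libraries. ETV4, the most GC-rich of the genes, stood above the 4OHT mean by 0.76 (log2) in shXPO7_5 B, 0.51 in shXPO7_5 T and 0.45 in shXPO7_3 T, and by 0.35, 0.23 and 0.12 in the other knockdown libraries. ETV1, the most GC-poor, was at -0.80, -0.48 and -0.15 in the former libraries and at -0.16, 0.19 and 0.23 in the latter.

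With each library corrected for its trend on GC content and length, the knockdown changes of several genes with shXPO7_5 were smaller, at 0.31 ± 0.0391 for ETV4 and -0.17 ± 0.0513 for ETV1. EGR1 was at 0.15 ± 0.0483 (adjusted p = 0.112) and IER3 at 0.12 ± 0.0430 (adjusted p = 0.146) in this fit. The corrected fit had smaller standard errors for the 10 genes and called 2.32% of all genes with shXPO7_3, 3.17% with shXPO7_5 and 0.301% between the shRNAs. With shXPO7_3 it called 4 of the 10 genes, all higher, ETV4 (0.24 ± 0.0390, adjusted p = 0.00770), ETS1 (0.21 ± 0.0391, adjusted p = 0.0181), IER3 (0.20 ± 0.0429, adjusted p = 0.0336) and EGR1 (0.22 ± 0.0482, adjusted p = 0.0369). With shXPO7_5 it called 3, all higher, ETV4 (adjusted p = 0.00223), EGR2 (0.38 ± 0.0923, adjusted p = 0.0473) and ETS2 (0.14 ± 0.0341, adjusted p = 0.0481). ETV4 was the gene called with both shRNAs in this fit. Between the shRNAs it called ETV1, at -0.28 ± 0.0512 (adjusted p = 0.0489).

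Against non-induced cells, most of the 10 genes were called in both knockdown groups. With shXPO7_3, 9 of the 10 were called, 8 higher and 1 lower, where 50.6% of all genes were called, 24.5% higher and 26.2% lower. With shXPO7_5, 7 were called, 6 higher and 1 lower, where 52.3% of all genes were, 25.3% higher and 27% lower. The fit corrected for GC content and length called all 10 with shXPO7_5, with ETS1, ETV1 and ETV5 added, where it called 63.6% of all genes, and ETV5 was also called with RLE factors (0.24, adjusted p = 0.0488), without non-induced library T (0.32) and without shXPO7_5 library A (0.28). EGR3 had a log2 change of 5.11 with 4OHT, 5.32 with shXPO7_3 and 5.23 with shXPO7_5. For EGR2 the values were 3.22, 3.44 and 3.71. IER3 stood at 2.85, 3.08 and 3.17, and ELK3 at -0.50, -0.35 and -0.50. These 3 comparisons share the non-induced libraries. ETS1 was called with shXPO7_3, at 0.25 ± 0.0665 (adjusted p = 0.00672), and not with shXPO7_5, at 0.073 ± 0.0666 (adjusted p = 0.383). The corrected fit called it with shXPO7_5 too, at 0.16 ± 0.0393 (adjusted p = 0.00384), the direct comparison of the shRNAs did not call ETS1 (adjusted p = 0.388), and with upper-quartile factors the call with shXPO7_3 was lost, at 0.16. The call of ELK3 with shXPO7_3 (adjusted p = 0.0349) was lost with the replicate letter as a block, at -0.27, and, at -0.36 to -0.27, without non-induced library A or C and without shXPO7_3 library T or A.

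Other genes of the pathway were taken from 8 lists with 92 genes. The ETS target list (MMP1, MMP3, MMP10, PLAU, PLAUR and CDKN2A) was higher with 4OHT in all 6 members, with a median log2 change of 2.39. Over all genes tested, 24.8% were called higher and 26.1% lower in this comparison. MMP10 and MMP3, stromelysin proteases, changed by 5.47 and 4.73, and PLAU, the urokinase, by 2.46. Of 16 transcripts that ERK induces or that restrain it, 15 rose and 1 fell, beside the same shares over all genes, with a median of 1.14. The phosphatases DUSP6 and DUSP4 changed by 3.49 and 2.99 and the inhibitor SPRY4 by 2.37. FOSL1, an AP-1 subunit named after its value was seen, was the one that fell, with a log2 change of -1.42.

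Other immediate early genes did not move one way. Of 20 tested, 9 rose and 7 fell, where 24.8% of all genes were called higher and 26.1% lower. FOS was at 2.05 and the Krüppel-like factors KLF4 and KLF2 were at -2.59 and -2.22. Among 12 other ETS factors tested of 22, 4 rose and 1 fell, where 50.9% of all genes were called. EHF, an epithelial ETS factor, changed by 4.40, ETV6, a repressor, by 0.64, and ELF4 by -0.71. ETV3 (0.48) and FLI1 (0.28), named after their values were seen, were the others that rose. NAB1, a corepressor that binds EGR1, rose by 1.21, and was 1 of 2 tested of 4 in the list of EGR relatives and NAB corepressors.

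Genes that act on the 10 factors were called in both directions. Of the regulators of the PEA3 subfamily, CIC, the repressor of ETV1, ETV4 and ETV5 that ERK inactivates, was at -0.49 (adjusted p = 0.00687). COP1 and DET1, parts of the ubiquitin ligase that degrades the PEA3 proteins, were at 0.32 and -0.56. The other 2 of 5 did not pass, where 50.9% of all genes were called. SRF itself did not pass the test, and of SRF and its coactivators MRTFA and MRTFB, MRTFB fell, with a log2 change of -0.59. Of 14 RAF, MEK, ERK and ERK-activated kinases tested, 3 rose and 4 fell, a share close to the 50.9% called among all genes. They were led by the RSK kinases RPS6KA2 at -1.62, RPS6KA3 at 1.49 and RPS6KA1 at -0.56. BRAF (0.43) and MKNK2 (0.40) also rose and ARAF (-0.36) and MAPK3 (-0.32) also fell, and were named after their values were seen.

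In the knockdown comparisons 1 gene of these 8 lists was called. Of all genes, 0.124% were called with shXPO7_3, 0.589% with shXPO7_5 and 0.0131% between the shRNAs. NR4A2, an orphan nuclear receptor of the immediate early class, was lower with shXPO7_5 than with 4OHT, with a log2 change of -0.70 ± 0.101 (adjusted p = 0.0132), and had -0.28 ± 0.0975 with shXPO7_3 (adjusted p = 0.524). Among the fibroblast markers 4 of 6 fell with 4OHT, where 26.1% of all genes were called lower. Their summed level was 16544 to 18009 CPM with 4OHT against 22916 to 26907 CPM in non-induced cells. PDGFRB was higher with shXPO7_5 than with 4OHT (adjusted p = 0.0256), where 0.589% of all genes were called. Of the epithelial markers 1 of 2 tested, EPCAM, was lower with 4OHT, 0 of 2 endothelial markers tested were called in that comparison, and no haematopoietic marker passed the filter. Against non-induced cells, 2 of 2 endothelial markers tested were called higher with each shRNA. Of all genes, 24.5% were called higher with shXPO7_3 and 25.3% with shXPO7_5. Whether these marker changes bear on the 10 genes was not tested.

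The genes whose levels followed each factor most closely were found by Pearson's r of log2 CPM over the 12 libraries, which fall into induced and non-induced clusters, so that r mostly reflects that split and is a description. For EGR3 they were CHST11 (0.999) and BMP2 (0.999), and for EGR2 DOCK6 (0.997) and KCTD15 (0.997). DOCK6 (0.998) also led for EGR1, followed by CSRNP1 (0.998). IER3 was followed by SEMA7A and CYP2S1 (both 0.999), ETS2 by WNT7B (0.998) and FOXL1 (0.998), and ETV4 by SH3BP1 and JUP (both 0.996). For the other genes the values were lower, CDC42BPB (0.973) for ETV5, BPNT2 (0.987) and SSR1 (0.978) for ETV1, HMGN3 (0.971) and VGLL3 (0.968) for ELK3, and PLCL1 (0.930) and VASH2 (0.928) for ETS1.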

How the data were processed

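The authors deposited read counts per gene for 12 RNA-seq libraries, without normalization, from a stranded mRNA kit. Per the submitters' processing notes, the tools were TopHat2 2.0.11, featureCounts 1.18.0 and CASAVA 1.8.4, on hg19 (GRCh37). How multiply matching reads were treated, which strand setting was used and which annotation was counted is not given in the sources used, so reads of overlapping genes could have been split differently. The 92 ERCC entries were 0 and left out.

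The model was edgeR 4.0.16 under R 4.3.3: filterByExpr, TMM scaling and a quasi-likelihood fit of 4 groups to all 12 libraries, with Benjamini-Hochberg adjustment over 15284 genes and a threshold of 0.05. The paper's main text names no test for differential expression, and its supplemental methods were not read here. An exact two-sided permutation test of 3 libraries against 3 allows no p below 0.1. Levels are TMM-scaled CPM, per kb of exon (all annotated exons of a gene) in GENCODE 29 where stated. That annotation (GRCh38) was matched by Ensembl identifier and gives the gene positions. It also gives GC content and length, known for 97.3% of genes tested. Library pairs within groups differed by more than sampling noise (chi-square per gene of 4.57 to 61.7). The scripts were tested on simulated data.

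The 10 genes and all lists were chosen with earlier results of these data known. Named genes were the 10, XPO7, up to 3 called genes of largest change per list, list genes called in a knockdown, and the 2 genes most correlated with each of the 10, of which 1 is not reported here. Other settings tried were upper-quartile and RLE factors, no filter, a replicate block, fits to only the 2 groups, leaving out each library, DESeq2 1.42.0, and a correction of each library for GC content and length (spline with 5 degrees of freedom).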

Additional observations from a re-analysis of the deposited data

How the results depend on the processing

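Of the member changes recomputed under the alternatives, 726 kept their direction and side of the threshold, 29 gained a call, 6 lost one and 19 changed sign, none of the latter with a call. The calls of 4OHT against non-induced cells were stable in number for the 10 genes. Against non-induced cells, shXPO7_5 had 7 of the 10 genes called, and 10 with the GC and length correction.

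For shXPO7_3 against 4OHT, all genes called numbered 19, and 8 with upper-quartile factors, 30 without the filter, 2 in the fit to 2 groups, 82 with DESeq2, 354 with the GC and length correction and 1 to 1 without single libraries; 0 of the 10 genes were called, and 4 with the correction. For shXPO7_5 against 4OHT the count was 90, and 127 with RLE factors, 217 without the filter, 149 with the replicate block and 10 in the fit to 2 groups. It was 374 with DESeq2, 484 with the correction and 2 to 3634 without single libraries. Of the 10 genes 0 were called, and 1 with RLE factors, 1 without the filter, 2 with the replicate block (EGR2 and ETV4), 3 with DESeq2, 3 with the correction and 0 to 6 without single libraries, the 6 and the 3634 both without shXPO7_5 library A. Between the shRNAs the count was 2, and 20 without the filter, 0 in the fit to 2 groups (820 at an unadjusted p under 0.05), 27 with DESeq2, 46 with the correction and 1 to 4 without single libraries; 1 of the 10 genes was called with the correction. Libraries of 1 letter in different groups had correlations of -0.20 to 0.57, the highest for letter T in non-induced and shXPO7_3 cells. The labels do not say what the letters mean, and whether they mark batches was not tested, so the block is an alternative only.

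Sign changes of uncalled values were as follows. ETS1 was at -0.024 with upper-quartile factors for 4OHT, and for shXPO7_5 at 0.016 with RLE factors, 0.050 with upper-quartile factors, 0.016 with DESeq2, 0.14 with the correction and -0.048 to 0.043 without single libraries. ELK3 with shXPO7_5 was at -0.0051 without the filter, -0.0084 with the replicate block, -0.00024 in the fit to 2 groups and -0.15 to 0.090 without single libraries. EGR3 with shXPO7_5 was at -0.0068 with the correction, as were EGR1 at -0.068 and IER3 at -0.079 between the shRNAs. Against non-induced cells, ETV5 with shXPO7_3 was at -0.0044 with upper-quartile factors and -0.0022 to 0.19 without single libraries, and ETV1 with shXPO7_5 at -0.022 to 0.28. The causes were not tested. With 3 libraries per group, uncalled changes with wide intervals remain undecided at this depth.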
